A study of Homo sapiens with 48 samples.

Results

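The genes described here encode the mitochondrial ribosomal proteins (MRP genes), the nuclear-encoded proteins of the ribosome that works inside mitochondria. They were chosen by name alone, as every gene of the count tables whose symbol is MRPL or MRPS followed by a number and at most 1 more letter. This gave 74 genes out of 14685, of which 46 carry an MRPL and 28 an MRPS name. A further 4 symbols of the same form (MRPL2, MRPL12, MRPL53 and MRPS24) were not analysed here. RNA came from HEK293T cells, a human embryonic kidney line labelled as wild type, which had all been transfected with a plasmid for NCBP1 fused to the Halo protein. NCBP1 is the larger protein of the nuclear cap-binding complex, which binds the capped end of new mRNA. In the T-REX arm, the cells received a photocaged probe that attaches to Halo and then light, which releases the lipid electrophile HNE next to NCBP1. The 3 technical controls are called light alone, probe alone and DMSO. In the study's methods, probe alone cells had the probe and no light, DMSO cells had neither, and the control named light alone is given both light and probe, so that what set it apart from T-REX cannot be read from the sources used here. RNA was taken 3, 6 and 12 h after the reaction, with 4 replicates of each arm at each time and 48 libraries in all. The NCBP1 protein was carried by a plasmid on top of the cell's own gene, and only these transfected cells of 1 line were profiled. The study describes the replicates as biological.

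Mitochondrial ribosomes translate the few mRNAs of the mitochondrial genome, all of which encode subunits of the respiratory chain or of ATP synthase. Their rRNAs are transcribed inside the organelle, while every protein is made in the cytosol from nuclear mRNA and imported. Compared with the bacterial ribosome from which it descends, the particle has lost much rRNA and gained many proteins of its own. The MRP genes were therefore grouped by subunit and origin. The large subunit accounts for 28 genes with a bacterial counterpart and 20 counted as mitochondria-specific, and the small subunit for 15 and 10. MRPS18A and MRPS30 sit in the large subunit in spite of their names and were counted there. Among the paralogues of bacterial S18, only MRPS18C was counted as having a bacterial counterpart. MRPS18A and MRPS18B were counted as mitochondria-specific. The remaining gene, MRPS36, has since been assigned to the 2-oxoglutarate dehydrogenase complex and stands apart.

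Total counts per library lay between 23952455 and 37099535. Markers expected in the line were present in every library. IRS4 lay at 367 to 727, LIN28B at 145 to 233 and VIM at 437 to 668 CPM. CPM are read counts relative to library size, the sizes being scaled by TMM. KRT8 and KRT18, also expected, were far lower, at 4.39 to 10.4 and 7.14 to 13.4 CPM. Among markers of other cell types, PTPRC, CD3E, ALB, HBB, PECAM1 and MYH7 were not listed in the tables. COL1A1, also a marker of other cell types, was present in every library at 2.13 to 6.07 CPM. NCBP1, counted from the plasmid and the cell's own gene together, lay between 30797 and 92201 CPM. It was not level between the arms. At 12 h its mean was 57501 ± 5339 CPM in T-REX cells and 59151 ± 10048 with probe alone (SD, n = 4). With light alone it was 40520 ± 6848 and with DMSO 34642 ± 4554. T-REX lay above DMSO without overlap and shared the range of probe alone. At 6 h probe alone had the highest mean, 82943 ± 12035 CPM, beside 72832 ± 5963 with T-REX. At 3 h the means of T-REX and DMSO cells were 75865 ± 15157 and 53847 ± 6155 CPM, and the ranges overlapped. The part of these differences in the results below was not tested. In bulk RNA, fewer cells of a type and less RNA per cell cannot be told apart.

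The promoters of MRP genes shared short sequence features that the naming rule did not use. Windows of 300 bases, from 250 before to 50 after the annotated start (RefSeq, GRCh38.p14), were at hand for 66 of the 74 genes. The letters CCGGAAG, the core bound by ETS factors, occurred on either strand in 28 of the 66 (42.4%), against 19.7% of the 10452 promoters of measured genes and 10.7% of all 27305 promoters. The letters ATGGCGG, the core bound by YY1, occurred in 23 (34.8%), against 10.6% and 5.72%. In 18 of these 23 genes they lay downstream of the start on the gene's own strand, beginning 9 to 38 bases past it, where the same letters can also read as a start codon followed by an alanine codon. At least 1 of both motifs was found in 44 genes. GCATGCG, the core of the NRF1 motif, was found in 7 genes (10.6%), against 6.83% and 4.13%, and the TATA letters TATAAA in 2 (3.03%), against 5.5% and 12%. The YY1 and NRF1 letters are short forms, chosen after longer forms had been searched. With the longer NRF1 form the share among MRP promoters was close to that among measured genes. The share with the longer YY1 form is not given here. The higher share of ATGGCGG therefore holds only for the short form that was picked. A match of letters is a description and not a binding site. The promoters of the 4 genes on which the comparisons below turn are shown for context, 5′ to 3′ on the strand of the gene, with capitals on every match. MRPL42 (chr12:93467264-93467563, plus strand), MRPL19 (chr2:75646533-75646832, plus strand) and MRPS15 (chr1:36464335-36464634, minus strand) each held ATGGCGG in the last 50 bases of the window. MRPL19 held it once more, upstream and on the opposite strand. MRPS15 also held the NRF1 and TATA letters, both on the opposite strand, far upstream of the start. MRPL3 (chr3:131502922-131503221, minus strand) held the ETS letters shortly before the start.
MRPL42: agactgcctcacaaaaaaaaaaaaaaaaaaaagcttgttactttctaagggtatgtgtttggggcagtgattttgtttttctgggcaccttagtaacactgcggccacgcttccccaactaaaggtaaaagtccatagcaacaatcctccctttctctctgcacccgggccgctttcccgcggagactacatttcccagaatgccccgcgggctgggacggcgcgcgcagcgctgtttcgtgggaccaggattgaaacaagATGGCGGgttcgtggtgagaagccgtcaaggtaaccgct
MRPL19: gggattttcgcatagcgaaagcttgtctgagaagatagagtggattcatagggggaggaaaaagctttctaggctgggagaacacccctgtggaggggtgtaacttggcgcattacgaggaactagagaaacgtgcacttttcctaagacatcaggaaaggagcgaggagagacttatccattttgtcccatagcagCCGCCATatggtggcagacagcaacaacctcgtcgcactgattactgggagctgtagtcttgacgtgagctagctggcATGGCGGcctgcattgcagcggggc
MRPS15: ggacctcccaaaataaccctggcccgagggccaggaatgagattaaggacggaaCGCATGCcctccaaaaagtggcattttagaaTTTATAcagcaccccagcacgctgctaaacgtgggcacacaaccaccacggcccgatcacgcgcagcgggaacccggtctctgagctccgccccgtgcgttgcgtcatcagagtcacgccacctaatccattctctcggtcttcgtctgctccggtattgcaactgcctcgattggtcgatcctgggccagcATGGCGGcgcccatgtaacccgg
MRPL3: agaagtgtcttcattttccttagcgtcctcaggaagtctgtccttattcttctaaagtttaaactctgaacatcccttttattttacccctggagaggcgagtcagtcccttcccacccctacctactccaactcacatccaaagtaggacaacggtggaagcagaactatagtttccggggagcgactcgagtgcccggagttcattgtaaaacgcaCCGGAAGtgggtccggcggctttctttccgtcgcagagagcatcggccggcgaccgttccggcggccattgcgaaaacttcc

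MRP mRNAs differed widely in level. The median gene stood at 28.2 CPM, or 9.72 CPM per kb of annotated exon, against 21.5 CPM and 5.06 CPM per kb over all genes with a known length. Per kb, MRPL37 was highest at 76.2, followed by MRPL3 at 53.4, MRPL15 at 35.8, MRPL39 at 34.1 and MRPL9 at 32.3 CPM per kb. At the other end were MRPL38 at 0.616, MRPS17 at 1.14, MRPS28 at 1.19, MRPS12 at 1.21 and MRPL41 at 1.35 CPM per kb. Almost all proteins of a ribosome are present in equal number in the finished particle. The 4 classes had similar medians, from 7.9 CPM per kb in small-subunit genes with a bacterial counterpart to 10.8 in large-subunit genes with one. MRPL42 had the largest count of all, 319 CPM on average, but its exons cover 16393 bases in the annotation, which brings it to 19.4 CPM per kb. MRPS36 was low, at 4.17 CPM. Of the 74 genes, 9 had fewer than 5 CPM on average and 4 had at least 100.

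Replicates of the same arm agreed best for abundant MRP genes. The standard deviation of log2 CPM within arms had a median of 0.13, against 0.14 over all genes. It was smallest for MRPL37 and MRPS27 (0.06) and largest for MRPL41 (0.58), MRPS34 (0.44), MRPS12 (0.40), MRPL55 (0.34) and MRPS28 (0.33). Across the 74 genes, which are not independent replicates, the spread fell with the level (Pearson's r = -0.78, Spearman's rho = -0.81) and rose with the GC content of the transcript (r = 0.61, rho = 0.51). The 10 genes of the largest spread had a median of 2.53 CPM and a GC content of 60.4%, and the 10 of the smallest spread 56.5 CPM and 47%. MRPL41, a mitochondria-specific protein of the large subunit, illustrates the first kind. In the 4 T-REX libraries of 3 h it measured 0.266, 0.87, 5.6 and 3.97 CPM, the lowest being 7 counts. MRPL4, which lines the exit tunnel of the large subunit, gave 8.51, 10.9, 21.5 and 20.3 CPM in the same libraries, and MRPS34, a mitochondria-specific protein of the small subunit, 2.51, 2.83, 12.8 and 8.14 CPM. The same replicates, 3 and 4, were high for all 3 genes. Such joint shifts were not confined to T-REX. Light alone replicates 2 and 3 of 3 h gave 21.3 and 16.1 CPM for MRPL4, against 9.16 and 11.3 in replicates 1 and 4. For MRPL41 they gave 3.87 and 3.36 CPM, against 0.899 and 1.31. Deviations from the mean of each arm and time, over all 48 libraries, correlated between MRPL4 and MRPL41 (r = 0.91) and between MRPL4 and MRPS34 (r = 0.85). These pairs ranked 1 and 3 among the correlations of MRP genes with MRPL4. Other MRP genes moved the opposite way, with MRPL42 at -0.35 and the lowest, MRPS25, at -0.46. Among the DMSO libraries of 12 h, replicate 1 was the highest for MRPL4, with 15.8 CPM against 9.74, 11.1 and 7.4 in the others. Each library was also set against the mean of all 16 libraries of its time point, gene by gene on the log2 scale. The median deviation over the 74 genes was 0.15 for T-REX replicate 3 of 3 h and 0.12 for DMSO replicate 1 of 12 h. It was -0.13 for light alone replicate 3 of 6 h. These deviations hold differences between arms as well as between replicates.

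**Figure D1:**
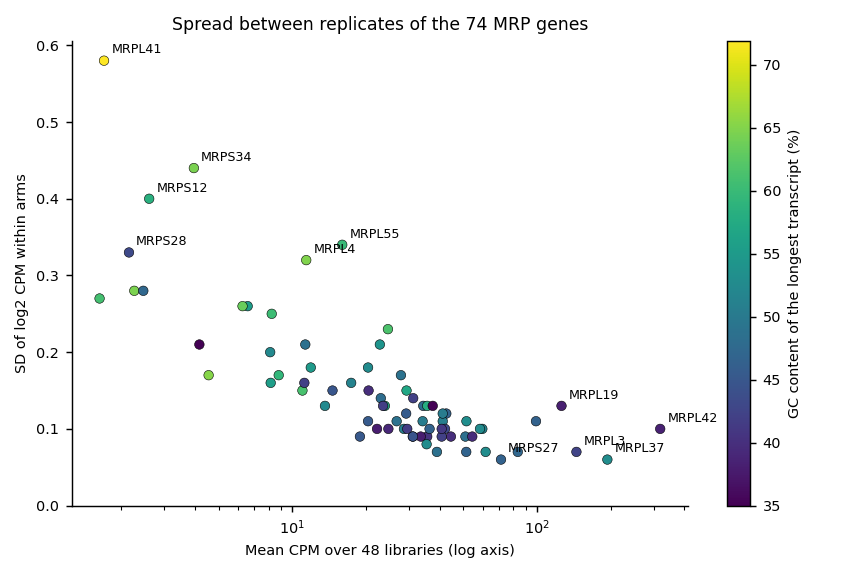
Standard deviation of log2 CPM between replicates of the same arm (vertical axis) against mean CPM over 48 libraries (horizontal log axis) for the 74 MRP genes, 1 point per gene, coloured by the GC content of the transcript. Spread falls from 0.58 for MRPL41 at the left to 0.06 for MRPL37 at the right, and GC-rich genes lie mostly at the left.

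To ask whether HNE release at NCBP1 changed these mRNAs, T-REX cells were compared with each control at each time. A gene was called at an adjusted p of at most 0.05. MRP genes were called against DMSO and against no other control. At 3 h, 3 genes were lower against DMSO (4.05% of 74, where 5.99% of all genes were called and 4.54% were called lower) and none was higher. At 12 h, 10 were lower (13.5%, where 10.9% of all genes were called and 6.79% lower) and none was higher. At 6 h no MRP gene was called against DMSO by edgeR, and 0.415% of all genes were called. There 9 MRP genes (12.2%) had an unadjusted p of at most 0.05, as had 12.4% of all genes, and DESeq2 called 2 (2.7%, against 1.96%). Against light alone edgeR called no MRP gene at 3, 6 or 12 h, on a background of 0.197%, 0.218% and 1.29% of all genes. At an unadjusted p of at most 0.05 there were 12, 4 and 7 MRP genes (16.2%, 5.41% and 9.46%), beside 14.8%, 11.7% and 12.9% of all genes, and DESeq2 called 3, 0 and 0 (4.05% at 3 h, against 1.51%). Against probe alone edgeR called none either, on a background of 1.05%, 0.109% and 0.701%. MRP genes with p up to 0.05 before adjustment numbered 10, 1 and 9 (13.5%, 1.35% and 12.2%), beside 18%, 6.56% and 11.1% of all genes, and DESeq2 called 1, 0 and 1 (1.35% at 3 and at 12 h, against 3.55% and 1.64%).

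The changes were small. The 74 genes had median log2 fold changes of 0.07, 0.01 and 0.05 at 3 h (in the order light alone, probe alone, DMSO), -0.02, -0.03 and -0.06 at 6 h, and -0.03, -0.06 and -0.08 at 12 h. Over all genes the corresponding medians lay within 0.03 of 0. More MRP genes lay below 0 than above at 12 h, with 48 of 74 for light alone, 57 for probe alone and 52 for DMSO. These 3 comparisons share the T-REX libraries. Such a lean also occurred between some controls, without T-REX. Light alone had 53 genes below 0 against probe alone at 3 h and 48 against DMSO at 12 h. Probe alone against DMSO had 29 below 0 at 3 h and 43 at 12 h. The rule used in the study for a significantly differentially expressed (SDE) gene asks for calls of equal sign in no fewer than 2 of the 3 comparisons with controls. No MRP gene met it at any time by edgeR, whereas 0.947% of all genes did at 3 h, 0.136% at 6 h and 1.4% at 12 h. With unadjusted p-values, 9, 0 and 11 MRP genes met it (12.2%, 0% and 14.9%), beside 15.8%, 5.22% and 12.2% of all genes, and by DESeq2 1, 0 and 0. With the authors' 2 factors of unwanted variation per library as covariates, 7, 0 and 6 met it, and those at 3 h were MRPL42, MRPL19, MRPL3 and MRPL50 (lower) and MRPL51, MRPL24 and MRPL33 (higher). In those fits far more of all genes were called as well, namely 11.8%, 17.4% and 20.8% at 3 h with the controls in the order above, where the MRP genes gave 10.8%, 9.46% and 14.9%. The share of all genes that met the SDE rule with these factors or by DESeq2 is not given. Those SDE counts therefore have no background beside them. In simulated data for the comparison with DMSO, a change of 1.2-fold was recovered in 24%, 22% and 21% of cases at 3, 6 and 12 h and a change of 1.5-fold in 78%, 87% and 88%. Each size of change was given to 100 genes, drawn from all genes above a minimum mean count, and libraries were drawn independently. Recovery was therefore not measured for the least abundant MRP genes, such as MRPL41, or for libraries that deviate together. The number of changed genes was the same at every time, unlike the number called in the real comparisons. The adjusted threshold depends on that number, so recovery in the real comparisons can differ.

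**Figure D2:**
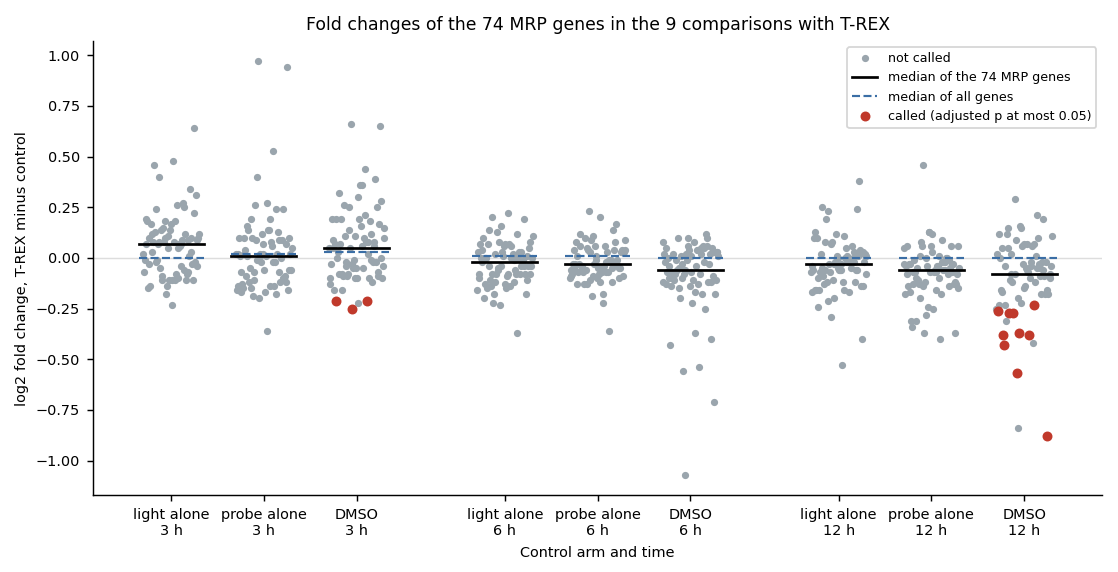
Log2 fold changes of T-REX against each control (vertical axis) for the 74 MRP genes in the 9 comparisons (horizontal axis), 1 point per gene, with called genes in red, the median of the MRP genes as a black bar and that of all genes as a dashed line. Red points appear against DMSO alone, 3 at 3 h and 10 at 12 h, and all lie below 0.

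MRPL42, a large-subunit protein found only in mitochondria, was called against DMSO at both 3 and 12 h. At 3 h it measured 290, 302, 266 and 283 CPM in T-REX cells, 317, 318, 335 and 320 with light alone, 336, 362, 319 and 303 with probe alone, and 344, 341, 320 and 355 with DMSO. Every T-REX library was below every library of the 3 controls. The log2 fold change was -0.25 ± 0.05 (SE) against DMSO (adjusted p = 0.008), -0.18 against light alone (adjusted p = 0.12) and -0.20 against probe alone (adjusted p = 0.068). At 12 h the values were 281, 282, 271 and 265 CPM with T-REX, 320, 319, 318 and 305 with light alone, 287, 278, 279 and 254 with probe alone and 320, 351, 424 and 320 with DMSO. T-REX and probe alone shared a range there, and both lay below light alone and DMSO. The fold change against DMSO was -0.37 ± 0.07 (adjusted p = 0.0012), that against light alone -0.20 (adjusted p = 0.16) and that against probe alone -0.00 (adjusted p = 1.0). At 6 h it measured 313, 313, 316 and 300 CPM with T-REX and 329, 337, 290 and 334 with DMSO, which overlap (log2 fold change -0.06, adjusted p = 0.81). The calls at 3 and 12 h held in all 16 fits that left out 1 library. With T-REX replicates 1 and 3 of 3 h left out together, the call at 3 h was lost (-0.21, adjusted p = 0.066).

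MRPL19 and MRPS15 were the other genes lower against DMSO at both times. MRPL19, a large-subunit protein with a bacterial counterpart, measured 114, 123, 106 and 117 CPM with T-REX at 3 h and 133, 137, 124 and 140 with DMSO. The groups did not overlap, and the fold change was -0.21 ± 0.06 (adjusted p = 0.039). At 12 h it measured 109, 113, 107 and 103 CPM with T-REX, 111, 103, 116 and 112 with probe alone, 124, 116, 113 and 112 with light alone and 128, 131, 183 and 121 with DMSO. DMSO replicate 3 stood far above the rest of its group, and T-REX again lay below all DMSO libraries. The fold change of -0.38 ± 0.09 (adjusted p = 0.012) became -0.22 without that library and remained called. MRPL19 overlaps GCFC2 on the opposite strand and the intronic transcript AC005034.5 on the same strand, and whether the counting used the strand is not given in the sources used here.

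MRPS15 is the small-subunit relative of a bacterial protein that binds the rRNA early in assembly. At 3 h it measured 58.2, 58.4, 57.4 and 55.5 CPM with T-REX, 65.8, 55.1, 58.4 and 55.7 with light alone, 70.3, 65.6, 58.7 and 60.4 with probe alone and 67, 66.6, 66 and 66.6 with DMSO. T-REX lay below DMSO and probe alone and within the range of light alone, and the fold change against DMSO was -0.21 ± 0.06 (adjusted p = 0.045). At 12 h the values were 55.7, 57.3, 54.5 and 60.1 CPM with T-REX, 49.3, 57, 52.9 and 53.5 with probe alone, 64, 66.5, 63 and 63.9 with light alone and 68.8, 61.3, 70.7 and 66.2 with DMSO. T-REX and probe alone lay below the other arms without overlap. The fold change was -0.23 ± 0.06 against DMSO (adjusted p = 0.014), -0.17 against light alone (adjusted p = 0.16) and 0.09 against probe alone (adjusted p = 0.61). At 6 h, when T-REX cells held 62.1, 65.8, 59.9 and 60 CPM and DMSO cells 60.5, 61.3, 62.1 and 60.4, the ranges overlapped. The 3 h calls were the less stable ones. MRPL19 kept its call in 9 and MRPS15 in 8 of the 16 fits that left out 1 library, and without T-REX replicate 4, or without DMSO replicate 1, 2 or 4, only 1 MRP gene was called at 3 h. At 12 h MRPS15 was lost without T-REX replicate 1 (adjusted p = 0.052).

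**Figure D3:**
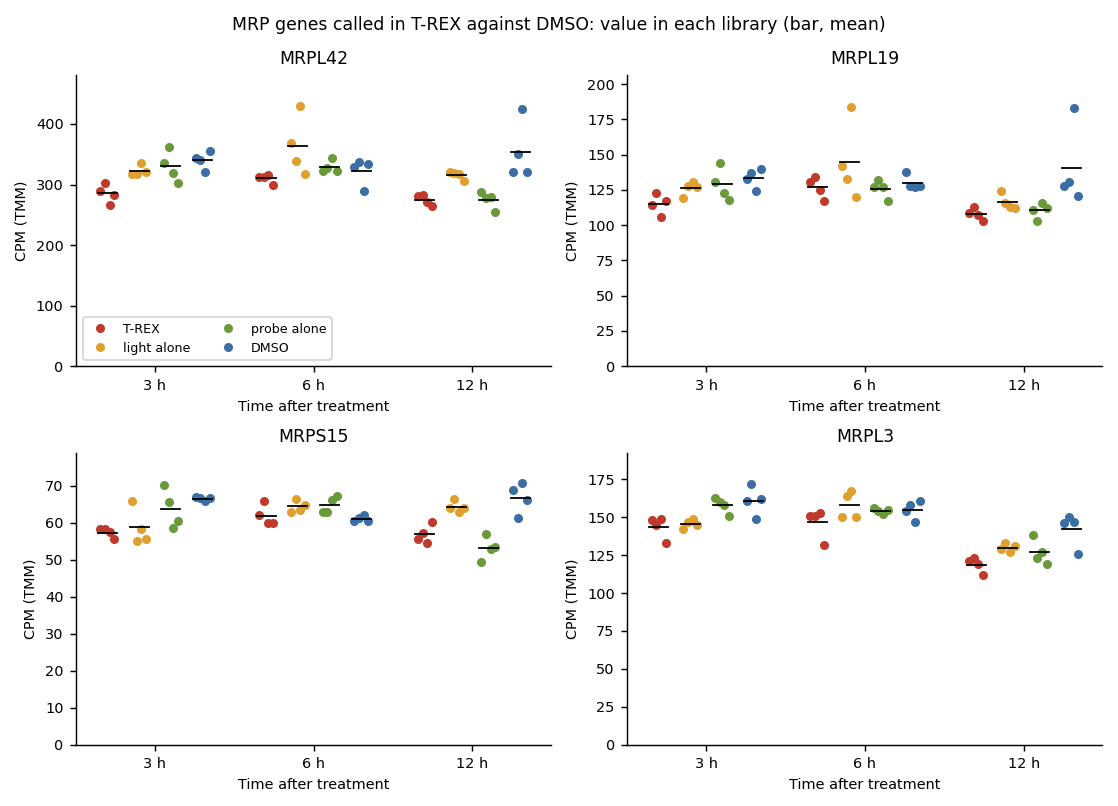
CPM scaled by TMM (vertical axes, from 0) in each library at 3, 6 and 12 h for MRPL42, MRPL19, MRPS15 and MRPL3, 1 point per library coloured by arm, with a bar at the mean of 4. At 12 h the T-REX libraries lie below the DMSO libraries for all 4 genes, and the probe alone libraries lie beside T-REX for MRPL42, MRPL19 and MRPS15.

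At 12 h, 7 more genes were called lower against DMSO, 5 of them large-subunit proteins with a bacterial counterpart. MRPL3, which lies near the site of peptide bond formation, measured 121, 123, 119 and 112 CPM with T-REX, 129, 133, 127 and 131 with light alone, 138, 123, 127 and 119 with probe alone and 146, 150, 147 and 126 with DMSO. T-REX was below light alone and DMSO and overlapped probe alone, and the fold change against DMSO was -0.27 ± 0.06 (adjusted p = 0.004). At 3 h MRPL3 reached -0.16 against DMSO (adjusted p = 0.05, just above the threshold). MRPL35 measured 35.3, 36.8, 34.1 and 32.4 CPM with T-REX and 44.1, 41.6, 44.3 and 36.8 with DMSO at 12 h. The lowest DMSO library and the highest T-REX library met at the same value, and the fold change was -0.27 ± 0.07 (adjusted p = 0.017), or 0.064 without T-REX replicate 4. MRPL11, which forms the base of the stalk where translation factors bind, measured 21.6, 26, 23.3 and 24.6 CPM with T-REX and 28.7, 27.4, 30.2 and 27.8 with DMSO. Its groups did not overlap, and the fold change was -0.26 ± 0.08 (adjusted p = 0.045). MRPL11 overlaps PELI3 on the opposite strand and kept its call in 3 of 16 fits that left out 1 library.

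The other 4 genes called at 12 h were less abundant, and their differences rested more on DMSO replicates 1 and 3. MRPS34 measured 2.43, 2.28, 2.61 and 3.5 CPM with T-REX and 6.89, 3.69, 5.74 and 3.71 with DMSO. The groups did not overlap, with DMSO replicates 1 and 3 high, and the fold change was -0.88 ± 0.22 (adjusted p = 0.011). Without both libraries it was -0.44 (adjusted p = 0.32). MRPL4 measured 6.96, 6.05, 8.48 and 8.2 CPM with T-REX and 15.8, 9.74, 11.1 and 7.4 with DMSO, which overlap. Its fold change was -0.57 ± 0.17 (adjusted p = 0.031), and it was -0.34 without DMSO replicate 1 (adjusted p = 0.12). Leaving out T-REX replicate 1, T-REX replicate 2 or DMSO replicate 3 also ended its call, at adjusted p of 0.094, 0.093 and 0.067. MRPL20 measured 15.9, 15.6, 16.3 and 16.6 CPM with T-REX and 28.6, 19.8, 21.1 and 17.3 with DMSO, all DMSO libraries being higher, and its fold change was -0.43 ± 0.12 (adjusted p = 0.022). Without DMSO replicate 1 it was -0.27 (adjusted p = 0.083), and the call was also lost without T-REX replicate 1 (0.063) or T-REX replicate 2 (0.052). MRPL57, a mitochondria-specific protein, measured 9.95, 9.75, 11 and 10.2 CPM with T-REX and 16.3, 12.5, 14.1 and 10 with DMSO, with an overlap at the lowest DMSO library. Its fold change was -0.38 ± 0.12 (adjusted p = 0.046), and its call held in 1 of 16 fits that left out 1 library. MRPL20 lies opposite the antisense RNA MRPL20-AS1.

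Set side by side, the fold changes of these 10 genes at 12 h ran from -0.88 to -0.23 for T-REX against DMSO. They ran from -0.40 to -0.10 for T-REX against light alone, and from -0.37 to 0.09 for T-REX against probe alone. Light alone against DMSO gave -0.48 to -0.06 for the same genes, and probe alone against DMSO -0.52 to -0.07. All of these comparisons share libraries. For fits that left out 1 library, here and elsewhere, the share of all genes called is not given. Their counts therefore show only how the calls shifted, and not whether the MRP genes shifted more than other genes. The number of MRP genes called against DMSO at 12 h was 5 without T-REX replicate 1, 6 without DMSO replicate 1 and 17 without DMSO replicate 4. It was 3 (MRPL42, MRPL3 and MRPL19; 4.05%, with 4.33% of all genes called) with DMSO replicates 1 and 3 left out together and 2 (MRPL42 and MRPL3; 2.7%, against 2.49%) in a fit of these 2 arms only. With the factors of unwanted variation as covariates it was 22 (29.7%), close to the 26.7% of all genes. By class, the calls comprised 6 of 28 large-subunit genes with a bacterial counterpart, 2 of 20 mitochondria-specific large-subunit genes, 1 of 15 small-subunit genes with a bacterial counterpart and 1 of 10 mitochondria-specific small-subunit genes. At 12 h, where 10.9% of all genes were called, T-REX lay wholly below DMSO for 12 MRP genes (16.2%) and wholly above for 1, MRPL39 (1.35%), beside 7.52% and 5.89% of all genes. At 3 h it lay wholly below DMSO for 7 (9.46%, against 7% of all genes) and wholly above for none (against 4.26%). At 6 h it lay wholly below for 2 (2.7%, against 3.47%) and wholly above for 1 (1.35%, against 4.4%). Between controls, light alone lay wholly below probe alone for 12 MRP genes at 3 h and wholly above for 0. At 12 h probe alone lay wholly below DMSO for 5 and above for 1, and light alone below for 3 and above for 0. The share of all genes is not given for these pairs of controls.

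No MRP gene was called higher in T-REX cells against any control. The genes with the smallest p on that side at 3 h were MRPL33, MRPL51 and MRPL24 against light alone, all proteins of the large subunit. They stood at 0.40 ± 0.10, 0.48 ± 0.12 and 0.46 ± 0.13 (adjusted p = 0.084, 0.09 and 0.099). MRPL51 measured 33.5, 32.1, 44.7 and 27.4 CPM with T-REX, 26.2, 23.4, 22.7 and 26.7 with light alone, 38.3, 28.3, 38.2 and 33.1 with probe alone and 27.2, 27.6, 26.7 and 30.8 with DMSO. T-REX lay above light alone without overlap and shared the range of probe alone, against which its fold change was 0.01. Without T-REX replicate 4, MRPL51 was called against light alone (0.57, adjusted p = 0.048). DESeq2 called all 3 of these genes against light alone, at adjusted p of 0.034 for MRPL33, 0.02 for MRPL51 and 0.046 for MRPL24. Against DMSO at 3 h, MRPL58 led this side at 0.36 ± 0.12 (adjusted p = 0.088). MRPL58 is a peptidyl-tRNA hydrolase that was taken into the large subunit and can free stalled chains. MRPS11 followed at 0.21 ± 0.07 (adjusted p = 0.091).

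MRPL51 is also 1 of 5 MRP genes that the study lists for splicing events, with MRPL3, MRPL13, MRPL23 and MRPL36. That list was chosen on these samples and is not independent evidence of a direction. Apart from MRPL3 at 12 h, edgeR called none of the 5 at the gene level in T-REX against a control. MRPL23 came nearest at 12 h, at -0.31 ± 0.11 against DMSO (adjusted p = 0.062). DESeq2 called MRPL23 in that comparison (adjusted p = 0.032), MRPL3 against DMSO at 3 h (adjusted p = 0.03) and MRPL51 against light alone at 3 h, as given above. In T-REX against DMSO at 12 h, MRPL13 stood at -0.23 and MRPL36 at -0.27 by edgeR (adjusted p = 0.16 and 0.29). The 3 paralogues of bacterial S18 occupy different places in the particle and were not called either. At 12 h against DMSO, MRPS18A reached -0.05, MRPS18B 0.21 and MRPS18C 0.10 (adjusted p = 0.76, 0.22 and 0.41). MRPS30 stood at -0.18 (adjusted p = 0.16) and MRPS36 at -0.09 (adjusted p = 0.79).

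The comparisons with light alone and probe alone at 12 h named partly other genes. Against probe alone the smallest p was that of MRPL21, a large-subunit protein with a bacterial counterpart. It measured 30.4, 26.8, 27.3 and 26.8 CPM with T-REX, 29.9, 32.5, 29.9 and 32 with light alone, 35.8, 31.7, 37.8 and 35.3 with probe alone and 37.8, 35.2, 27.6 and 29.6 with DMSO. T-REX lay below probe alone without overlap and overlapped the other controls. The fold change was -0.34 ± 0.09 (adjusted p = 0.063), and it was called without DMSO replicate 1, 3 or 4, libraries that are not part of the comparison but share its estimate of the spread. MRPL35 and MRPL20 came next, at -0.20 ± 0.07 and -0.31 ± 0.12 (adjusted p = 0.25 and 0.31). Against light alone MRPL42, MRPL35 and MRPS15 led the lower side, all at an adjusted p of 0.16. On the higher side, MRPL45, which helps to hold the ribosome at the inner membrane, was among the first 3 genes against every control at 12 h. It measured 38.5, 38.9, 38.9 and 37.5 CPM with T-REX, 33.8, 34.8, 36 and 37.5 with light alone, 34, 35.1, 36.5 and 35 with probe alone and 35.4, 37.7, 29.5 and 35.9 with DMSO. The T-REX libraries were at the top of the range, and the fold changes of 0.12, 0.13 and 0.15 (adjusted p = 0.49, 0.52 and 0.16) were not called.

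At 6 h the arms were closest. Against DMSO the smallest p-values were those of MRPL20 (-0.43 ± 0.12, adjusted p = 0.098), MRPL4 (-0.56 ± 0.15, adjusted p = 0.1) and MRPL41 (-1.07 ± 0.32, adjusted p = 0.13). In these 3 genes DMSO replicates 1 and 3 were high. MRPL20 measured 19.3, 20.6, 18.9 and 21.4 CPM with T-REX and 30, 20.1, 33.3 and 24.6 with DMSO, and MRPL4 measured 9.5, 9.69, 10.1 and 10.6 with T-REX and 16.4, 12.6, 19.5 and 10.3 with DMSO. Both pairs of groups overlap at 1 DMSO library. DESeq2 called MRPL20 and MRPL4 (adjusted p = 0.028 for each). Against light alone, MRPL42 had the smallest p (-0.23 ± 0.07, adjusted p = 0.18), with light alone at 369, 338, 429 and 318 CPM, all above T-REX. Light alone replicate 3 was the highest of its group for MRPL42 and for MRPL19, which it put at 184 CPM against 142, 133 and 120 in the other replicates. Without light alone replicate 4, MRPL42 was called against light alone (-0.29, adjusted p = 0.028). MRPL20 was called against DMSO without DMSO replicate 2 (adjusted p = 0.016), MRPL4 without light alone replicate 3 (adjusted p = 0.036), and MRPL4 and MRPL41 without DMSO replicate 4 (adjusted p = 0.023 and 0.05). Against probe alone the smallest p was that of MRPS21, a small-subunit protein with a bacterial counterpart, at 0.14 ± 0.06 (adjusted p = 0.75).

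The controls were also compared with each other, as the background for these calls. At 3 h and at 6 h no MRP gene was called between any pair of controls by edgeR, on a background of 0.232% and 0.0749% of all genes. At an unadjusted p of at most 0.05 there were 17 and 9 MRP genes (23% and 12.2%), beside 20% and 22.8% of all genes. DESeq2 called 1 at 3 h, for light alone against probe alone (1.35%, against 1.38% of all genes), and 0 at 6 h. At 12 h 4 MRP genes were called, on a background of 5.26%. Probe alone differed from DMSO in all 4 (5.11% of all genes were called in that comparison), with MRPS15 at -0.33 ± 0.06 (adjusted p = 0.004), MRPL42 at -0.37 ± 0.07 (adjusted p = 0.0044) and MRPL19 at -0.35 ± 0.09 (adjusted p = 0.033). None of these 4 calls held in a fit of only these 2 arms (adjusted p from 0.094 to 0.18), in which 0.0953% of all genes were called. MRPS15, MRPL42 and MRPL19 were also the ones called in T-REX against DMSO at 3 h. The comparisons of T-REX and of probe alone with DMSO at 12 h share the DMSO libraries. MRPL19 fell back to -0.19 without DMSO replicate 3, and its call was lost without probe alone replicate 1, 2, 3 or 4 (adjusted p = 0.073, 0.093, 0.051 and 0.067). The fourth gene, MRPL39, a mitochondria-specific protein of the large subunit, was higher with probe alone at 0.23 ± 0.06 (adjusted p = 0.027), with 42.5, 46.8, 46.2 and 44.3 CPM against 39.7, 38.6, 35.8 and 39.4 with DMSO and no overlap. Its call was lost without probe alone replicate 2 or 3 or DMSO replicate 2 or 3 (adjusted p = 0.085, 0.071, 0.052 and 0.066). MRPS15 differed between light alone and probe alone too, by 0.27 ± 0.06 (adjusted p = 0.042, where 0.415% of all genes were called), a call kept in 6 of 16 fits that left out 1 library and lost with a replicate block (adjusted p = 0.055). The count of MRP genes called between controls at 12 h was 2 without probe alone replicate 2 or 3 and 7 without DMSO replicate 1.

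Whether the T-REX effect, taken as T-REX minus the mean of the 3 controls, changed with time was tested in a fit of all 48 libraries. No MRP gene was called between 12 and 3 h by edgeR or DESeq2, and 0.116% of all genes were called by edgeR. At an unadjusted p of at most 0.05 there were 8 MRP genes (10.8%), beside 11% of all genes. The median difference of the 74 genes was -0.08, against -0.01 over all genes. MRPS34 had the smallest p (-1.28 ± 0.39, adjusted p = 0.15), followed by MRPL20 (-0.47 ± 0.17, adjusted p = 0.25) and MRPL51 (-0.38 ± 0.14, adjusted p = 0.26). For MRPS34, T-REX replicates 3 and 4 of 3 h stood above the rest, as given above. A call for 1 MRP gene appeared without T-REX replicate 1 or replicate 2 of 3 h. Between 6 and 3 h and between 12 and 6 h edgeR and DESeq2 called no MRP gene, and 0% of all genes were called by edgeR. Here 7 and 2 MRP genes (9.46% and 2.7%) had an unadjusted p of at most 0.05, beside 7.47% and 2.96% of all genes. In data simulated in the same way for 12 against 3 h, 18% of changes of 1.2-fold and 76% of changes of 1.5-fold were recovered.

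Larger differences appeared between the time points within each arm, and they pointed downwards in all 4. From 3 to 12 h, 35 of the 74 MRP genes were lower in T-REX cells (47.3%, where 41.7% of all genes were called and 20.6% were called lower) and none was higher. With light alone 23 were lower (31.1%, against 39.4% called and 19% lower) and 2 higher. With probe alone 31 were lower (41.9%, against 42.3% called and 21% lower) and none higher. With DMSO 18 were lower (24.3%, against 38.8% called and 18.4% lower) and 1 higher. The median log2 fold changes were -0.24, -0.17, -0.20 and -0.11, while those of all genes lay between -0.01 and 0.01. In 12 MRP genes (16.2%, against 10.2% of all genes) the fall was called in all 4 arms. They were MRPL3, MRPL15, MRPL18, MRPL30, MRPL35 and MRPL47 of the large subunit and MRPS7, MRPS11, MRPS16, MRPS18C, MRPS25 and MRPS26 of the small subunit. A total of 45 MRP genes lay below 0 in every arm and none above 0 in every arm. Each time point has a count table of its own, and time and anything else that differed between these sets of libraries cannot be told apart.

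MRPS25, a mitochondria-specific protein of the small subunit chosen here after its values were seen, had the smallest p of the 74 in every arm. At 3 h it measured 104, 103, 96.7 and 100 CPM with T-REX, 95.9, 96.7, 94.1 and 115 with light alone, 95.6, 92.2, 96.9 and 98.8 with probe alone and 101, 96.8, 88.3 and 102 with DMSO. At 12 h it measured 73.2, 72.4, 69.9 and 68.3 CPM with T-REX, 70.2, 74, 74.4 and 77 with light alone, 70.6, 73.6, 72.6 and 68.3 with probe alone and 68.3, 74, 71.1 and 75.1 with DMSO. No library of 12 h reached any library of 3 h, and the arms overlapped within each time. The fold changes were -0.51 in T-REX, -0.44 in light alone, -0.43 in probe alone and -0.43 in DMSO cells, each ± 0.05 (adjusted p = 7.6e-11, 3.3e-09, 5.9e-09 and 9.3e-09). MRPS11 fell by 0.54, 0.44, 0.40 and 0.39 on the log2 scale (arms in the same order), and MRPL3 by 0.28, 0.16, 0.32 and 0.18. MRPS25 overlaps NR2C2 on the opposite strand.

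A few MRP genes went the other way or differed between arms over time. MRPS33, a mitochondria-specific protein of the small subunit, rose with light alone (0.28 ± 0.10, adjusted p = 0.017) and DMSO (0.24 ± 0.10, adjusted p = 0.041) and stood at -0.09 in T-REX and 0.10 in probe alone cells, without a call. MRPS15 rose with light alone (0.13 ± 0.05, adjusted p = 0.049), fell with probe alone (-0.26 ± 0.05, adjusted p = 9.6e-05), and stood at -0.01 with T-REX and 0.00 with DMSO. MRPL42 and MRPL19 fell in probe alone cells (-0.27 and -0.23, adjusted p = 0.001 and 0.037), and the other arms, without a call, gave -0.05 to 0.06 for MRPL42 and -0.12 to 0.08 for MRPL19. Whether these changes over time differ between control arms was not tested. MRPS34 fell in T-REX cells at -1.28 ± 0.33 (adjusted p = 0.0021), where 2 of the 4 libraries of 3 h were high, and stood at -0.23, 0.01 and 0.25 in light alone, probe alone and DMSO cells.

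Every class held genes that were lower at 12 h than at 3 h. In the large subunit, genes with a bacterial counterpart gave 17, 12, 14 and 8 of 28 in the 4 arms, listed in the order used above, and the mitochondria-specific genes of that subunit 4, 2, 7 and 3 of 20. In the small subunit, genes with a bacterial counterpart gave 8, 6, 5 and 5 of 15 and the mitochondria-specific genes 5, 3, 5 and 2 of 10. No test was made of the difference between the classes. From 3 to 6 h, 15 MRP genes were lower in T-REX cells (9.8% of all genes were lower), 6 in light alone cells (11%), 11 in probe alone cells (10.5%) and 5 in DMSO cells (6.97%), and 3 were higher with light alone. The counts in T-REX cells rested in part on replicate 3 of 3 h, without which they were 27 for 12 h and 5 for 6 h. Without T-REX replicates 1 and 3 of 3 h and DMSO replicates 1 and 3 of 12 h they were 23 and 6, where 33% and 15.7% of all genes were called. Without light alone replicate 2 of 3 h the calls with light alone were 16 for 12 h and 5 for 6 h. Those for 6 h were 4 without light alone replicate 3 of 6 h. The 6 h calls with probe alone were 7 without probe alone replicate 1 or 4 of 6 h or DMSO replicate 2 of 6 h. With DMSO they were 2 without DMSO replicate 2 or 4 of 3 h or replicate 3 of 6 h, and 3 without replicate 1 of 3 h or replicate 4 of 6 h.

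**Figure D4:**
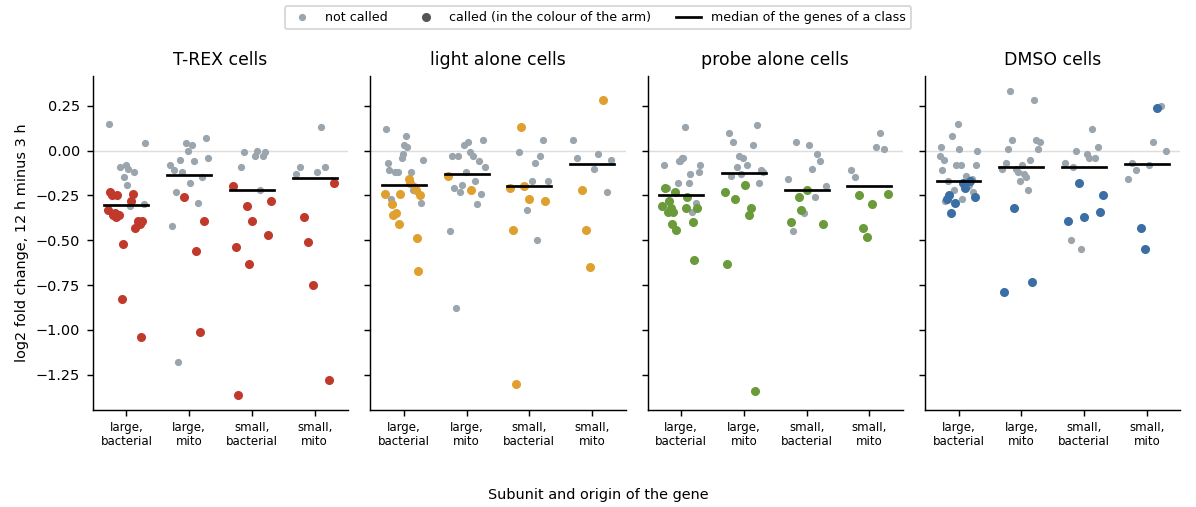
Log2 fold change from 3 to 12 h (vertical axis) of the MRP genes in cells of each arm (panels), 1 point per gene, by subunit and by whether the protein has a bacterial counterpart or is specific to mitochondria (horizontal axis), with called genes in colour and class medians as bars. MRPS36 is left out. Called genes lie below 0 apart from 2 with light alone and 1 with DMSO, and large-subunit genes with a bacterial counterpart hold 17 of the 35 called in T-REX cells.

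The summed level of all 74 genes showed the same course. At 3 h it lay between 2702 and 2990 CPM with T-REX, 2782 and 2868 with light alone, 2820 and 3037 with probe alone and 2817 and 2951 with DMSO. At 12 h it was 2458, 2522, 2471 and 2469 CPM with T-REX, 2583, 2616, 2590 and 2583 with light alone, 2583, 2542, 2658 and 2412 with probe alone and 2778, 2711, 2837 and 2562 with DMSO. T-REX lay below light alone and DMSO and overlapped probe alone, with means of 2480 ± 28.5, 2593 ± 15.9, 2549 ± 103 and 2722 ± 119 CPM (SD, n = 4). At 6 h T-REX lay between 2603 and 2752 CPM and reached the range of every control, which began at 2752 for light alone, 2746 for probe alone and 2741 for DMSO. The large-subunit genes made up most of the sum. They gave 1718, 1753, 1722 and 1721 CPM with T-REX at 12 h and 1971, 1924, 2058 and 1795 with DMSO, and the small-subunit genes 736, 766, 746 and 744 against 804, 784, 774 and 763. For the large subunit the groups do not overlap, and for the small subunit they meet at the highest T-REX and the lowest DMSO library. MRPL42 accounts for the largest part of the sum, and no test was made on it.

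Other genes of the same pathway were followed as fixed lists, chosen like the MRP genes with earlier results of these data known. In T-REX against DMSO, 5.99% of all genes were called at 3 h and 10.9% at 12 h, 4.54% and 6.79% being lower, and the counts below stand beside these shares. Of 5 mitoribosome subunits with other names (DAP3, PTCD3, CHCHD1, AURKAIP1 and GADD45GIP1), none was called in T-REX against DMSO at 3 or 12 h. Among 26 genes for assembly of the particle and modification of its rRNA, 1 was called at 12 h, NGRN, an assembly factor of the large subunit, at -0.87 ± 0.16 (adjusted p = 0.0024). It was lower with probe alone against DMSO as well, at -0.68 ± 0.16 (adjusted p = 0.021). Of 14 mitochondrial translation factors, 1 was called at 3 h, LRPPRC, which stabilizes mitochondrial mRNA, at -0.17 ± 0.05 (adjusted p = 0.045), and none at 12 h. Neither of the 2 rRNAs of the particle, MT-RNR1 and MT-RNR2, was called at 12 h (-0.36 ± 0.21 and -0.34 ± 0.25), and rRNA had been depleted from these libraries. Among 9 genes for mitochondrial RNA synthesis and its regulators none was called in T-REX against DMSO, and MYC was lower with probe alone against DMSO at 12 h (-0.28 ± 0.07, adjusted p = 0.015).

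The mRNAs that these ribosomes translate also included genes lower against DMSO. Of the 13 mRNAs of the mitochondrial genome, 5 were lower at 12 h, where 6.79% of all genes were, namely MT-ND2 (-0.44 ± 0.07, adjusted p = 2.6e-04), MT-CO3 (-0.48 ± 0.07, adjusted p = 2.7e-04), MT-CYB (-0.22 ± 0.06, adjusted p = 0.027), MT-CO2 (-0.21 ± 0.07, adjusted p = 0.046) and MT-ATP6 (-0.75 ± 0.22, adjusted p = 0.046). They encode subunits of respiratory complexes I, III and IV and of ATP synthase. MT-ND2 was lower at 3 h too (-0.24 ± 0.06, adjusted p = 0.015). Probe alone differed from DMSO at 12 h in 3 of these mRNAs, MT-ND2, MT-ND4 and MT-CO3, all lower, where 5.11% of all genes were called. None of the 13 was called in T-REX cells against light alone or probe alone at 12 h. The median fold change of the 13 against DMSO at 12 h was -0.21, beside -0.08 for the MRP genes.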

How the data were processed

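Total RNA of HEK293T cells was prepared by the authors with stranded reagents after rRNA depletion and sequenced in pairs. The tools named by the study are cutadapt, TopHat and Cufflinks, while the counter, its strand setting and the genome build are not given in the sources used here. The deposited tables hold raw counts per gene for 14685 genes, 1 table per time point, with total counts of 23952455 to 37099535 per library. At this depth no MRP gene fell below 7 counts. Replicates differed beyond counting noise in all 72 pairs (chi-square per degree of freedom 3.15 to 46.5). The authors also deposited log2 CPM and adjusted scores, which were not used, and 2 factors of unwanted variation per library, scores whose method is not stated, which served as covariates in an alternative.

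Gene symbols came from a current list of gene names, and from GENCODE release 29 where that list had none (14568 identifiers with a symbol). Lengths and overlaps came from GENCODE release 29, and promoters from RefSeq. Of the MRP genes, 23 overlap a tested gene on the opposite strand and 8 on the same strand. Counts were tested with edgeR 4.0.16 in R 4.3.3 (TMM, robust quasi-likelihood F-tests, 2-sided). The 16 libraries of a time point entered a fit of 4 arms, and all 48 libraries a fit of 12 groups for changes with time. The filter on low counts removed 0 genes. P-values were adjusted by Benjamini-Hochberg over all genes within each comparison, and called means an adjusted p of at most 0.05. All per-library CPM are scaled by TMM, and log2 CPM carry a pseudocount of 0.5. The scripts were tested on simulated counts. Alternatives were DESeq2 1.42.0, RLE factors, library totals, no filter, a replicate block, the factors of unwanted variation, fits of 2 arms only and leaving out each library. Leaving out pairs of libraries was chosen after seeing the data.

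The genes, gene lists, motif letters and tests were chosen with earlier results of these data known. The text names every MRP gene called against a control, the 3 genes per direction with the smallest p in a T-REX comparison where they add to the account, the genes listed for splicing, the S18 paralogues, MRPS30, MRPS36 and genes of extreme spread. MRPL4, MRPL19, MRPL39, MRPS15, MRPS25 and MRPS33 were in part singled out after their values were seen.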

Additional observations from a re-analysis of the deposited data

Results flagged for a closer look

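Within groups of 4 replicates, a library was set apart where its gap to the nearest replicate, divided by the range of the group, exceeded Dixon's critical value for 4 samples. This was looked at for the summed levels and 11 MRP genes, 168 groups in all, and 9 stood out (5.36%), where chance gives about 1 in 20. For MRPL19, DMSO replicate 3 of 12 h measured 183 CPM against 131 in the next replicate, the library discussed beside its fold change above, and DMSO replicate 1 of 6 h 138 CPM against 128. For MRPL3, DMSO replicate 4 of 12 h was low at 126 CPM against 146, and T-REX replicate 4 of 6 h at 132 CPM against 151. For MRPL42, light alone replicate 3 of 3 h was high at 335 CPM against 320, while DMSO replicate 3 of 6 h was low at 290 CPM against 329 and light alone replicate 4 of 12 h at 305 CPM against 318. MRPL11 was low in T-REX replicate 1 of 6 h, at 25.3 CPM against 30. The summed level of the large-subunit genes was high in T-REX replicate 2 of 12 h, at 1753 CPM against 1722.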

How the results depend on the processing

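No called MRP gene changed direction under the alternatives run. RLE factors left the total of MRP genes called in each comparison within 1.5 times its value above, although the 2 genes higher at 12 than at 3 h with light alone became 1. A fit without the filter on low counts was the same fit, since the filter removed 0 genes. The median fold changes moved by less than their spread under other scalings. With the factors of unwanted variation as covariates, more MRP genes were called, as were more of all genes (11.8%, 17.4% and 20.8% at 3 h, 8.19% and 7.14% at 6 h against light alone and DMSO, and 8.62%, 6.14% and 26.7% at 12 h). At 3 h there were 8 against light alone, 7 against probe alone, 11 against DMSO, 7 SDE and 12 between controls, at 6 h 4 against light alone, 6 against DMSO and 7 between controls, and at 12 h 4 against light alone, 4 against probe alone, 22 against DMSO, 6 SDE and 18 between controls. The cause was not tested. For the alternatives in this section, the share of all genes that met the SDE rule or were called between any controls is not given. At 3 h DESeq2 gave 3 against light alone (1.51% of all genes were called), 1 against probe alone (3.55%) and 1 SDE. It also gave 1 between controls, for light alone against probe alone (1.38%). At 6 h it gave 2 against DMSO (1.96%), and at 12 h 1 against probe alone (1.64%). Fits of only the 2 arms compared hold fewer libraries. At 3 h they gave 1 against DMSO (1.35%, with 1.27% of all genes called). They also gave 1 between controls, for light alone against probe alone (1.35%, with 1.06%). At 12 h they gave 4 against light alone (5.41%, with 7.67%) and 1 against probe alone (1.35%, with 2.65%). There were 2 against DMSO (2.7%, with 2.49%) and 2 SDE. All 4 calls of probe alone against DMSO at 12 h ended.

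The replicate numbers did not pair the libraries, since deviations of same-numbered libraries correlated at -0.51 to 0.51 with a median of -0.01 and above 0.1 in 23 of 72 pairs. With a replicate block, 5 MRP genes were called against DMSO at 3 h (6.76%, with 6.95% of all genes called) and 8 at 12 h (10.8%, with 10.1%). The call of MRPS15 for light alone against probe alone at 12 h was lost (adjusted p = 0.055). The 2 genes higher at 12 than at 3 h with light alone became 1, and the other counts of called MRP genes stayed within 1.5 times.

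Leaving out T-REX replicates 1 and 3 of 3 h gave 0 against DMSO at 3 h, where 2.58% of all genes were called. It gave 1 between controls, for light alone against probe alone (1.35%, with 2.1%). Leaving out DMSO replicates 1 and 3 of 12 h gave 3 against light alone at 12 h (4.05%, with 5.41%). There were 2 against probe alone (2.7%, with 3.34%), 3 against DMSO (4.05%, with 4.33%) and 1 SDE. With both pairs left out, T-REX cells had 23 calls from 3 to 12 h (31.1%, with 33%) and 6 from 3 to 6 h (8.11%, with 15.7%).

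Leaving out 1 library at a time gave ranges at 3 h of 0 to 1 against light alone (1 without T-REX replicate 4), 0 to 1 against probe alone (1 without T-REX replicate 3 or probe alone replicate 4), 1 to 4 against DMSO, 0 to 1 SDE (1 without probe alone replicate 4) and 0 to 1 between controls (1 without T-REX replicate 3). At 6 h the ranges were 0 to 1 against light alone and 0 to 2 against DMSO. At 12 h they were 0 to 1 against light alone (1 without DMSO replicate 3), 0 to 1 against probe alone, 5 to 17 against DMSO, 0 to 2 SDE (2 without DMSO replicate 3, 1 without DMSO replicate 4) and 2 to 7 between controls. The change of the T-REX effect from 3 to 12 h gave 0 to 1. From 3 to 6 h the ranges were 5 to 18 in T-REX, 4 to 11 in light alone, 7 to 14 in probe alone and 2 to 5 in DMSO cells, and from 3 to 12 h 27 to 38, 16 to 26, 24 to 33 and 14 to 21. The share of all genes called is not given for these fits.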
